A study of Mus musculus with 8 samples.

Results

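The unfolded protein and heat shock genes followed here are a list of 42 genes in 3 branches of the response to misfolded protein, read out of the deposited table by gene name. The table held 41 of them among its 19673 genes: 17 of the endoplasmic reticulum branch, 9 of the integrated stress branch and 15 of the 16 listed for the heat shock branch. Hspb1 was not analysed here. The RNA came from CD8 T cells, gated as live, CD45+, CD3e+ and CD8+, out of dissociated tumours of Py8119, a mouse cell line of mammary tumour origin. Hosts were labelled Mtdh KO or WT, with 4 libraries from each, and Mtdh encodes metadherin. Both groups carried the same tumour line, the labels name no treatment, and host age, strain and sex and the extent of the knockout are not given in the sources used here. Libraries are named by group and replicate number, and values are given in the order of libraries 1 to 4. The comparison asks what loss of Mtdh in the host does to these transcripts in the sorted cells.

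Cells sense misfolded protein separately in the endoplasmic reticulum and in the cytosol. In the endoplasmic reticulum, the sensors IRE1 (Ern1), ATF6 and PERK raise folding enzymes and degradation factors through the transcription factors XBP1, ATF6 and ATF4. ATF4 is also the shared output of the integrated stress response, in which phosphorylation of eIF2 slows translation while genes of amino acid supply and stress signalling are turned on. In the cytosol, HSF1 is released from chaperones and turns on heat shock genes. In CD8 T cells, XBP1 and ATF4 are known for their part in activation, effector function and dysfunction within tumours.

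No member passed the test between KO and WT hosts. Values are gene counts estimated and normalized by the authors, used as log2(value + 1) in a limma model of all 16120 genes with a mean of at least 10, which all 41 members reached. At a Benjamini-Hochberg adjusted p of 0.05, limma called 0 of the 41 members, and 38 genes of all those tested, or 0.236%. At an unadjusted p of 0.05, 2 of the 41 members passed, Pdia4 and Sel1l, against 1080 genes, or 6.7%, over the whole table. The smallest adjusted p of any member was 0.739, for Pdia4. The log2 difference, KO minus WT, was positive for 17 members and negative for 24, with a median of -0.07, beside a median of -0.12 over all genes tested. Of the members with a mean of at least 1000, 12 of 22 were negative, with a median of -0.03. At that level 1712 of 3515 genes were negative, with a median of 0.01. Sel1l alone had KO values that did not overlap the WT values, all of them lower. Over all genes, the KO values lay all above the WT values in 325, or 2.02%, and all below them in 337, or 2.09%.

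The abundant members were measured closely enough to bound their differences. Of the 22 members with a mean of at least 1000, 20 had a 95% interval that stayed within 1 log2 unit of 0 in either direction, or 90.9%, beside 74.9% of the 3515 genes at that level. The exceptions were Hspa1a and Hspa1b. Over all 41 members, 23 had such an interval, or 56.1%, beside 20.7% of all genes tested. Spread between libraries of 1 group differed between the branches: the median residual SD on the log2 scale was 0.275 in the endoplasmic reticulum branch, 0.381 in the heat shock branch and 0.870 in the integrated stress branch, beside 1.193 over all genes tested. The integrated stress branch also held the members with the lowest values, with a median level of 410 against 2083 and 2229 in the other branches.

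**Figure D1:**
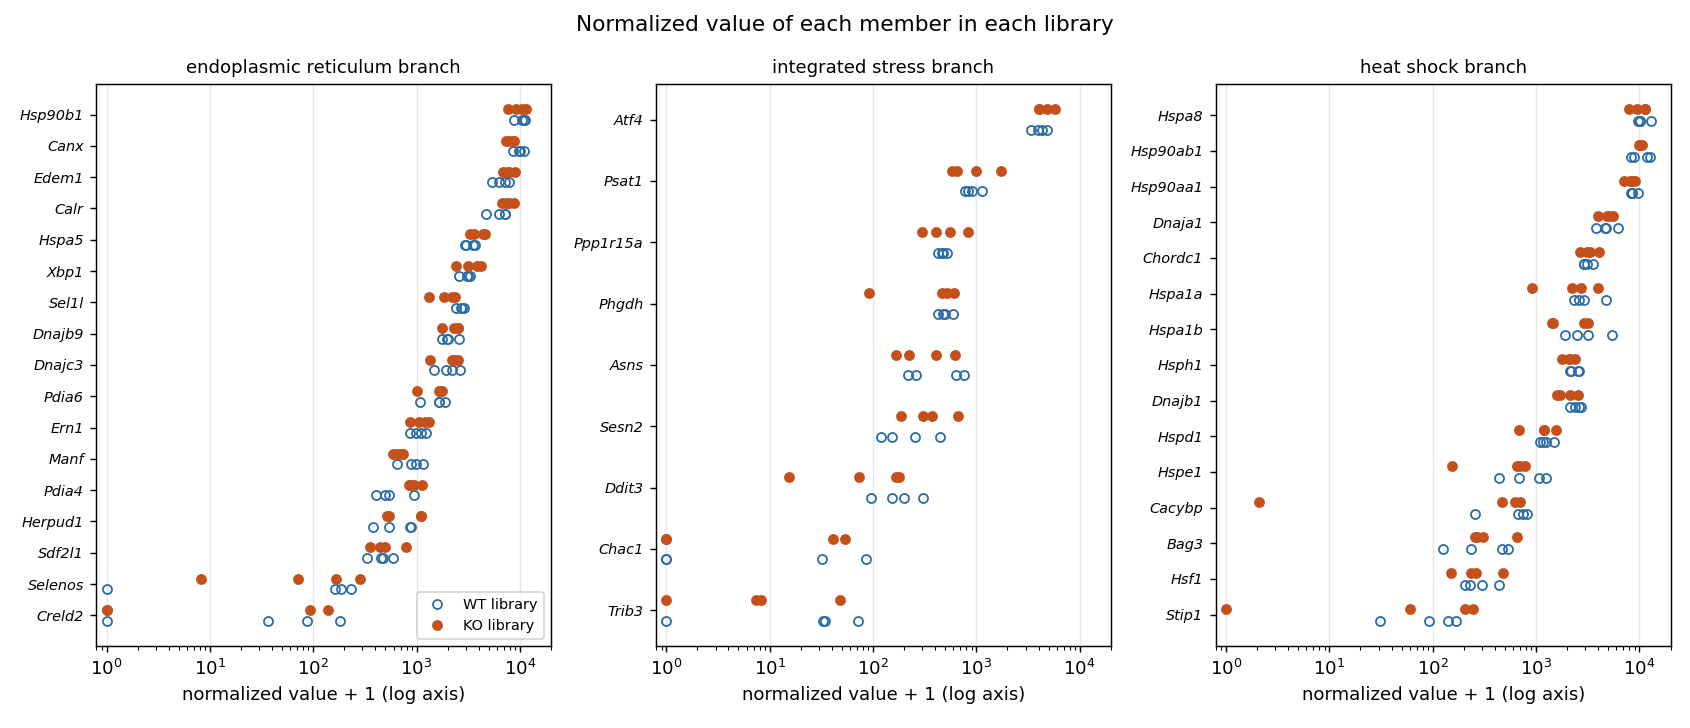
Normalized value plus 1 of each of the 41 members in each library, on a log axis, with members sorted by their mean within each branch. Filled orange points are KO libraries and open blue points WT libraries; the groups overlap for every member but Sel1l, and the lowest members have libraries at 0.

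Several facts of the libraries touch these values. Mtdh checked the labels: its values were 5118, 4622, 2538 and 3341 in KO libraries and 9324, 12745, 6407 and 7974 in WT libraries, a log2 difference of -1.23 (SE 0.25, limma adjusted p = 0.04). Mtdh reads were thus lower but present in every KO library, and the deleted part of the gene is not given in the sources used here. Depth was an estimated 16400000 to 29600000 reads per library. These came from an estimated 113000 to 643000 distinct cDNA fragments, so the average fragment was worth a normalized value of 23.6 to 153. Some values lay far below that, such as Cacybp at 1.10 in KO library 2, so fragment counts are approximate. KO library 2 had the fewest fragments, and 14 members rested on under 3 fragments there. It gave the lowest value of 16 of the 41 members, more than any other library. Values without it are given beside the members it moved most.

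The sort label was checked against markers. CD8 T cell markers were detected in every library, all 12 of them, with Cd8a at 430 to 3672 per kilobase of exon. Macrophage markers were detected as well, all 14 in every library, and Lyz2 stood at 57175 to 160747 per kilobase, above Cd8a in each library. The summed CD8 T cell markers ranged from 20930 to 49784 in KO and from 8331 to 28925 in WT libraries, with a positive log2 difference for 11 of 12. The summed macrophage markers ranged from 120050 to 265420 in KO and from 200140 to 311200 in WT libraries, with a negative log2 difference for 13 of 14. Fibroblast markers summed to 8294 to 32996 in KO and 13309 to 35996 in WT libraries, with 9 of 10 negative, and B and plasma cell markers to 1977 to 4102 and 2193 to 3320. Tumour epithelial markers summed to 1043 to 1789 and 788 to 2188. In each list the groups overlapped. Members of all 3 branches are expressed by most cell types, and the part of these other cells in the differences below was not tested. In RNA from a sort, fewer cells of a type and less RNA per cell cannot be told apart.

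The endoplasmic reticulum branch is shown first with the regulatory letters that define it. Promoters of its chaperones are known to carry the endoplasmic reticulum stress element, bound by ATF6 and by XBP1 together with NF-Y, written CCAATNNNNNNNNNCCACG. It was searched on both strands of RefSeq promoter windows on GRCm38.p6, from 250 bases before to 50 bases after each gene's start, which were at hand for 37 of the 42 listed genes. Hsp90ab1, Manf, Hsp90aa1, Hspa8 and Hsf1 had no window. The exact letters were found in 7 of 16 windows of this branch (Calr, Canx, Creld2, Dnajc3, Hsp90b1, Hspa5 and Pdia6), in 0 of 9 of the integrated stress branch, in 0 of 12 of the heat shock branch and in 0.137% of 27025 genes. Hspa5 is shown as the 140 bases before its start (chr2:34771950-34772089, plus strand) because it is the textbook target. The other lines give single sites with 8 bases on each side, to show the element in both orientations; all are on the gene's own strand, with the element in capitals.
Hspa5: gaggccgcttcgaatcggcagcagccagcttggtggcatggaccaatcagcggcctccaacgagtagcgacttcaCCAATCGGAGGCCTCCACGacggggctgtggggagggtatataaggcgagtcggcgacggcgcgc
Canx (chr11:50325792-50325826, minus strand): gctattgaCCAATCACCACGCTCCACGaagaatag
Pdia6 (chr12:17266483-17266517, plus strand): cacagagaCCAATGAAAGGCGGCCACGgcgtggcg
Calr (chr8:84847067-84847101, minus strand): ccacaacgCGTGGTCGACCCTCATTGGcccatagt
Hsp90b1 (chr10:86705630-86705664, minus strand): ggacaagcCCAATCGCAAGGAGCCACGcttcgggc
The element began 65 bases before the start in Hspa5, 145 bases before it in Canx and 98 bases before it in Pdia6. Calr carried it in the reverse orientation, and Hsp90b1 held a second copy, reversed, nearer to its start. The shorter unfolded protein response element TGACGTGG was found in 0 of the 37 windows and in 0.714% of all genes.

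Genes with this element did not share a direction. Canx and Hsp90b1 had negative log2 differences of -0.28 and -0.12, and Pdia6 one of -0.05, while Calr, Hspa5 and Dnajc3 had positive ones of 0.29, 0.26 and 0.01. None passed the test. Without KO library 2 the value of Dnajc3 was 0.20. Creld2, the remaining gene with the element, rested on under 3 fragments in all 8 libraries. Over the branch, 11 of 17 differences were positive, with a median of 0.13. That median depended on 1 library: without KO library 4 it was -0.09, with 8 of 17 positive.

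No difference was detected in the sensor Ern1 or the transcription factor Xbp1. Ern1, the kinase and RNase that splices Xbp1 mRNA, read 1210, 1330, 868 and 1047 in KO libraries and 868, 1224, 1115 and 978 in WT libraries (log2 difference 0.08, SE 0.28, adjusted p = 0.970). Its interval ran from -0.50 to 0.67. Xbp1 read 3888, 4202, 2414 and 3177 in KO libraries and 3111, 3127, 2585 and 3298 in WT libraries. KO libraries 1 and 2 stood highest and KO library 3 lowest, so the WT values lay inside the KO range. The log2 difference of Xbp1 was 0.15 (SE 0.22, adjusted p = 0.907, interval -0.32 to 0.62), and 0.04 without KO library 2. The values are per gene and do not separate spliced from unspliced Xbp1.

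Among the chaperones of the lumen, the highest level per kilobase of exon belonged to Hsp90b1 (GRP94), at 2480, then Calr at 2430 and Canx at 1907, while Hspa5 (BiP), the main HSP70 of the compartment, stood at 856. Hsp90b1 read 11384, 10383, 7620 and 9126 in KO libraries and 8854, 11016, 11183 and 10444 in WT libraries, which overlap (log2 difference -0.12, SE 0.19, adjusted p = 0.920). Calr, the soluble lectin chaperone of new glycoproteins, read 8798, 7805, 6771 and 7291 in KO libraries and 6250, 7161, 7192 and 4711 in WT libraries. Its mean was 7666 ± 865 in KO and 6329 ± 1164 in WT libraries (SD, n = 4; log2 difference 0.29, SE 0.20, adjusted p = 0.779). KO library 3 was the only KO library below the highest WT library, and the interval ran from -0.13 to 0.71.

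Canx, the membrane-bound partner of Calr in the same folding cycle, lay the other way. It read 7853, 8719, 7259 and 8546 in KO libraries and 9946, 10873, 9740 and 8668 in WT libraries, with means of 8094 ± 671 and 9807 ± 905 (SD, n = 4). Only KO library 2 reached past the lowest WT library. The log2 difference was -0.28 (SE 0.18, adjusted p = 0.773, interval -0.66 to 0.11). Under TMM, upper-quartile or quantile scaling the Canx groups no longer overlapped, and limma still did not call it. The share of all genes without overlap was not counted under these scalings.

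Pdia4 and Sel1l had the smallest unadjusted p among the members. Pdia4, a protein disulfide isomerase that forms disulfide bonds in new proteins (ENSMUSG00000025823, chr6:47773075-47790364 on mm39), read 846, 1127, 864 and 944 in KO libraries and 491, 402, 943 and 542 in WT libraries. All KO libraries stood above 3 of the WT libraries, and WT library 3 lay within the KO range. Mean values were 945 ± 129 and 595 ± 240 (SD, n = 4), a log2 difference of 0.74 (SE 0.34, unadjusted p = 0.0454, adjusted p = 0.739). Without KO library 2 it was 0.65 (unadjusted p = 0.083), and the lowest value rested on an estimated 6.24 fragments.

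Sel1l, the adaptor of the HRD1 ubiquitin ligase complex that takes misfolded proteins out of the endoplasmic reticulum (ENSMUSG00000020964, chr12:91772817-91815931 on mm39), read 2343, 1318, 1864 and 2227 in KO libraries. In WT libraries it read 2711, 2906, 2382 and 2745. The highest KO library lay just under the lowest WT library, and KO library 2 was the lowest of all. Means were 1938 ± 461 and 2686 ± 219 (SD, n = 4), so the KO mean was 72.1% of the WT mean, with a log2 difference of -0.50 (SE 0.24, unadjusted p = 0.0474, adjusted p = 0.742). Without KO library 2 the groups remained apart, with a log2 difference of -0.33 (unadjusted p = 0.155). Syvn1, which encodes HRD1 itself, read 674, 906, 729 and 871 in KO libraries and 530, 485, 730 and 602 in WT libraries, a log2 difference of 0.44 (unadjusted p = 0.196); it was set beside Sel1l after its values were seen.

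The other members of the branch spanned a narrow range where they were abundant. The log2 difference was 0.26 for Hspa5, 0.23 for Edem1, a lectin that marks glycoproteins for degradation, 0.14 for Dnajb9 (ERdj4), an HSP70 co-chaperone, and 0.01 for Dnajc3 (p58IPK), another such co-chaperone. Each of these had an interval within 1 log2 unit of 0. The ubiquitin-like membrane protein Herpud1, a part of the degradation machinery, gave 0.29, or 0.12 without KO library 2, and the co-chaperone Sdf2l1 gave 0.13. Manf, a secreted factor that binds Hspa5, gave -0.42, with 598 to 738 in KO and 644 to 1153 in WT libraries. Pdia6, another disulfide isomerase, gave -0.05 with KO library 2 included and 0.13 without it. Creld2 and Selenos were near the floor of detection. Creld2 read 139, 0, 92.2 and 0 in KO libraries and 180, 87.1, 35.5 and 0 in WT libraries. Selenos read 7.23, 166, 70.1 and 281 in KO libraries and 186, 0, 161 and 229 in WT libraries. No fold is given for either, since the average fragment was worth up to an estimated 153.

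**Figure D2:**
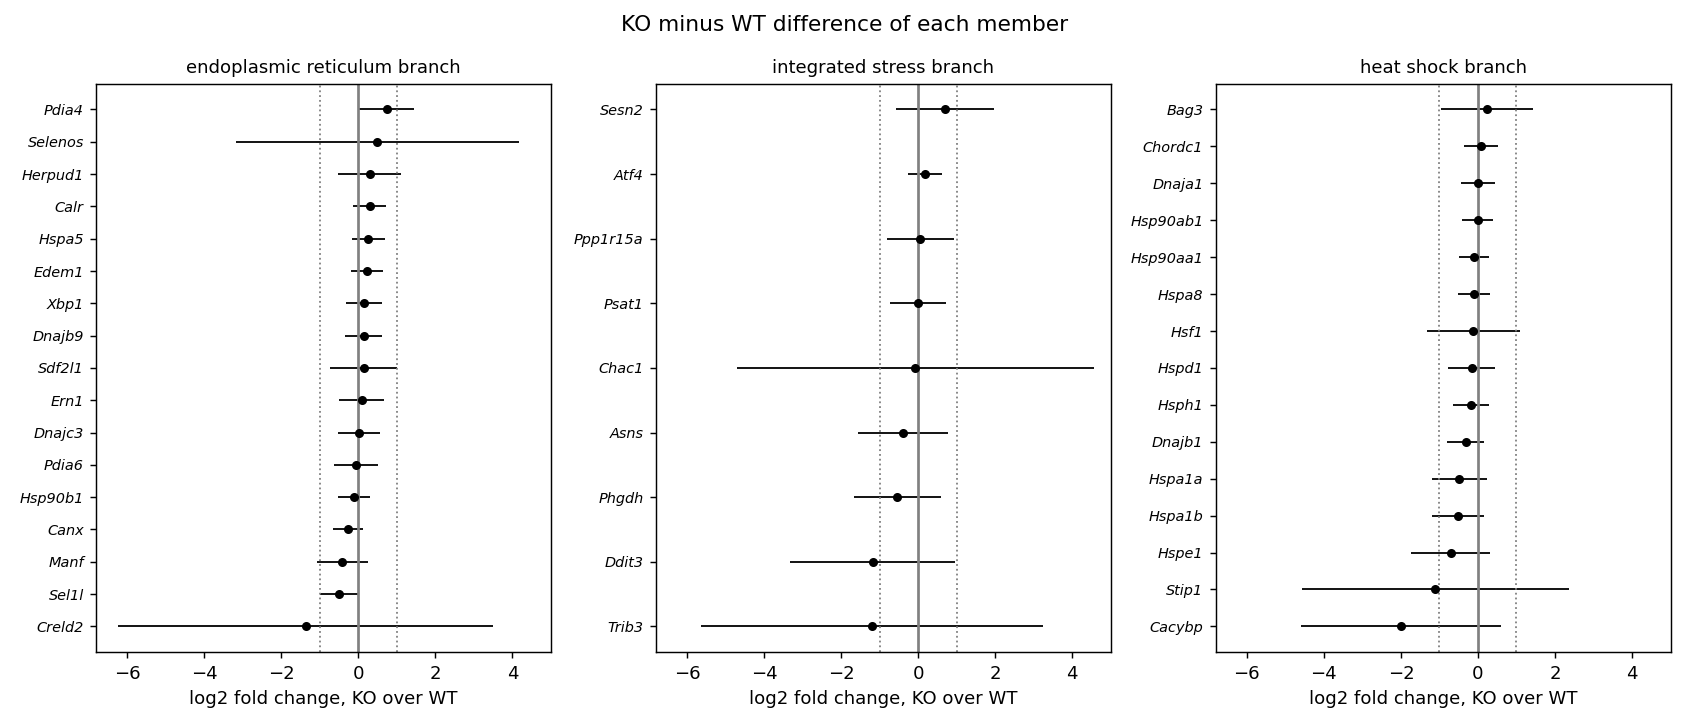
Log2 fold change, KO over WT, of each member with its 95% limma interval, by branch; the solid line marks no difference and the dotted lines mark 1 log2 unit either way. The intervals of Pdia4 and Sel1l end just short of 0, and the widest belong to members with libraries at 0, such as Creld2, Trib3 and Chac1.

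The integrated stress branch gave 3 positive and 6 negative differences of 9 members, with a median of -0.07. Its median depended on the libraries: with 1 library left out at a time it ranged from -0.534 to 0.146. The element known from its targets is the C/EBP-ATF response element, bound by ATF4 with a C/EBP partner and searched as TGATGNAA. It was found in 3 of 9 windows of this branch (Asns, Chac1 and Trib3), in 1 of 16 of the endoplasmic reticulum branch (Herpud1), in 0 of 12 of the heat shock branch and in 4.51% of all genes. Asns and Chac1 are shown, with the element in capitals, because they carry it before their start in opposite orientations.
Asns (chr6:7693217-7693240, minus strand): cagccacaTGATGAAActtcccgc
Chac1 (chr2:119351041-119351064, plus strand): ccctgccgTTGCATCActcctgcc

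Atf4, the transcription factor at the head of the branch, was its most abundant member per kilobase, at 1866, and its best measured. It read 4046, 5794, 4024 and 4853 in KO libraries and 4327, 4842, 3959 and 3347 in WT libraries (log2 difference 0.18, SE 0.21, adjusted p = 0.859). The groups overlapped, the interval ran from -0.26 to 0.62, and without KO library 2 the log2 difference was 0.07. ATF4 is known to be set largely by translation, which RNA values do not show. None of the branch's 3 members in amino acid supply passed the test. Asns, which makes asparagine, gave -0.39, or -0.72 without KO library 2, and ran up to -0.09 with another library left out. Psat1, the second enzyme of serine synthesis, gave 0.00, with 3 KO libraries between 581 and 1003 and KO library 2 at 1744, and -0.32 without that library.

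Phgdh, the first enzyme of serine synthesis, read 462, 91.4, 605 and 519 in KO libraries and 477, 421, 594 and 502 in WT libraries. KO library 2 alone lay below the WT range, and there the value rested on an estimated 0.597 fragments. The log2 difference was -0.54 (SE 0.54, adjusted p = 0.834) and 0.09 without that library. Of its transcript sequence in GENCODE M21, 47.8% of 50-base words occur in other genes, mostly a pseudogene, so its value can also depend on how shared reads were assigned.

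The stress signalling members were low and spread widely. Ddit3 (CHOP), the transcription factor tied to cell death under lasting stress, read 14.5, 178, 72.7 and 166 in KO libraries and 306, 197, 94.8 and 152 in WT libraries (log2 difference -1.18, SE 1.03, adjusted p = 0.828). The value in KO library 1 stood for under 1 estimated fragment, and without that library the log2 difference was -0.41. Without KO library 2 it was -1.59. Ddit3 (chr10:127126643-127132157 on mm39) overlaps Mars1 (chr10:127132090-127147655) on the opposite strand only at their ends. Without strand, reads from that short stretch alone cannot be told apart. Sesn2, an inhibitor of mTORC1 under amino acid shortage, read 670, 306, 187 and 369 in KO libraries and 254, 152, 118 and 444 in WT libraries (log2 difference 0.70, SE 0.61, adjusted p = 0.828). The KO libraries held the highest value, but WT library 4 lay above 3 of the KO libraries. Ppp1r15a (GADD34), which restores translation by dephosphorylating eIF2, gave 0.06, and 0.30 without KO library 2. Trib3, a pseudokinase that feeds back on ATF4, read 7.23, 0, 46.8 and 6.32 in KO libraries and 0, 70.0, 31.9 and 33.1 in WT libraries. Chac1, which degrades glutathione, was listed at 0 in 4 of 8 libraries, 2 in each group, and its highest value was 84.2. Both lie at or below the worth of a few fragments, so no fold is given for them.

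The heat shock branch had 3 positive and 12 negative differences of 15 members, with a median of -0.16, where 9128 of all 16120 genes tested were negative. Of its members with a mean of at least 1000, 8 of 10 were negative, with a median of -0.13. Among all genes at that level, 1712 of 3515 were negative, with a median of 0.01. At the ends of the range stood 2 libraries. KO library 2 held the lowest value of 8 of the 15 members, and WT library 4 the highest value of 8. Without KO library 2 the branch had 6 positive and 9 negative differences and a median of -0.01. Without WT library 4 the counts stayed at 3 and 12, with a median of -0.22.

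The element bound by HSF1 trimers is a run of inverted units of GAA. Written with 3 units as GAANNTTCNNGAA and searched on both strands, it was found in 4 of 12 windows of the branch (Chordc1, Hspd1, Hspe1 and Hsph1), in 0 windows of the other branches and in 0.662% of all genes. With 2 units, as GAANNTTC, it was found in 9 of 12 windows of the branch, in Asns, and in 9.04% of all genes. Every window with 3 units is also counted among those with 2. The 140 bases before the start of Hspe1 (chr1:55088008-55088147, plus strand) are shown because they serve a pair of genes: Hspd1 is read from the opposite strand, its window overlaps that of Hspe1 by 285 bases, and the same site was found in both. Capitals mark the run of units.
Hspe1: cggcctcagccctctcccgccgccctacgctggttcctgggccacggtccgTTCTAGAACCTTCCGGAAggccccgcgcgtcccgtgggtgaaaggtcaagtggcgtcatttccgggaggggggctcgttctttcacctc

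Hspd1 and Hspe1 encode the HSP60 chamber of mitochondria and its HSP10 lid. Hspd1 read 1203, 678, 1200 and 1551 in KO libraries and 1250, 1172, 1485 and 1092 in WT libraries (log2 difference -0.16, SE 0.29, adjusted p = 0.93). Hspe1 read 657, 154, 783 and 700 in KO libraries and 440, 687, 1244 and 1064 in WT libraries (log2 difference -0.71, SE 0.49, adjusted p = 0.773). In both genes KO library 2 was the lowest of all 8. Without it the log2 differences were 0.08 for Hspd1 and -0.16 for Hspe1. Their rows overlap by 112 bases on opposite strands, and 39.7% of the 50-base words of Hspd1 and 18.4% of those of Hspe1 occur in other genes, pseudogene copies among them.

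The inducible HSP70 genes Hspa1a and Hspa1b lie side by side on chromosome 17 (chr17:35188166-35191132 and chr17:35175412-35178214 on mm39) and cannot be fully told apart. The promoter windows differ at 4 of 300 positions, and 58.8% of the 50-base words of Hspa1a occur in Hspa1b. Hspa1a read 4011, 2701, 920 and 2210 in KO libraries and 2618, 2336, 2927 and 4705 in WT libraries (log2 difference -0.48, SE 0.34, adjusted p = 0.783). Hspa1b read 2887, 3189, 1451 and 1421 in KO libraries and 2474, 1900, 3212 and 5376 in WT libraries (log2 difference -0.52, SE 0.32, adjusted p = 0.770). Both genes were highest in WT library 4 and low in KO libraries 3 and 4, with KO libraries 1 and 2 inside the WT range. Summed, which does not depend on how reads were split between them, the pair read 6898, 5890, 2370 and 3631 in KO libraries and 5092, 4235, 6139 and 10081 in WT libraries. The KO mean of the sum was 73.6% of the WT mean, 4697 ± 2067 against 6387 ± 2583 (SD, n = 4), a gap smaller than either SD. The size of the difference depended on single libraries. Without KO library 3 it was -0.07 for Hspa1a and -0.35 for Hspa1b, and without WT library 4 it was -0.27 and -0.24. Without KO library 1 Hspa1a gave -0.78, and without KO library 2 Hspa1b gave -0.73 (unadjusted p = 0.0389, adjusted p = 0.814). With library weights, a fit that called 112 genes in all, the log2 difference was -0.64 for Hspa1a and -0.96 for Hspa1b. The adjusted p of Hspa1b was then 0.109, the smallest of any member in any of the 20 alternative analyses.

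**Figure D3:**
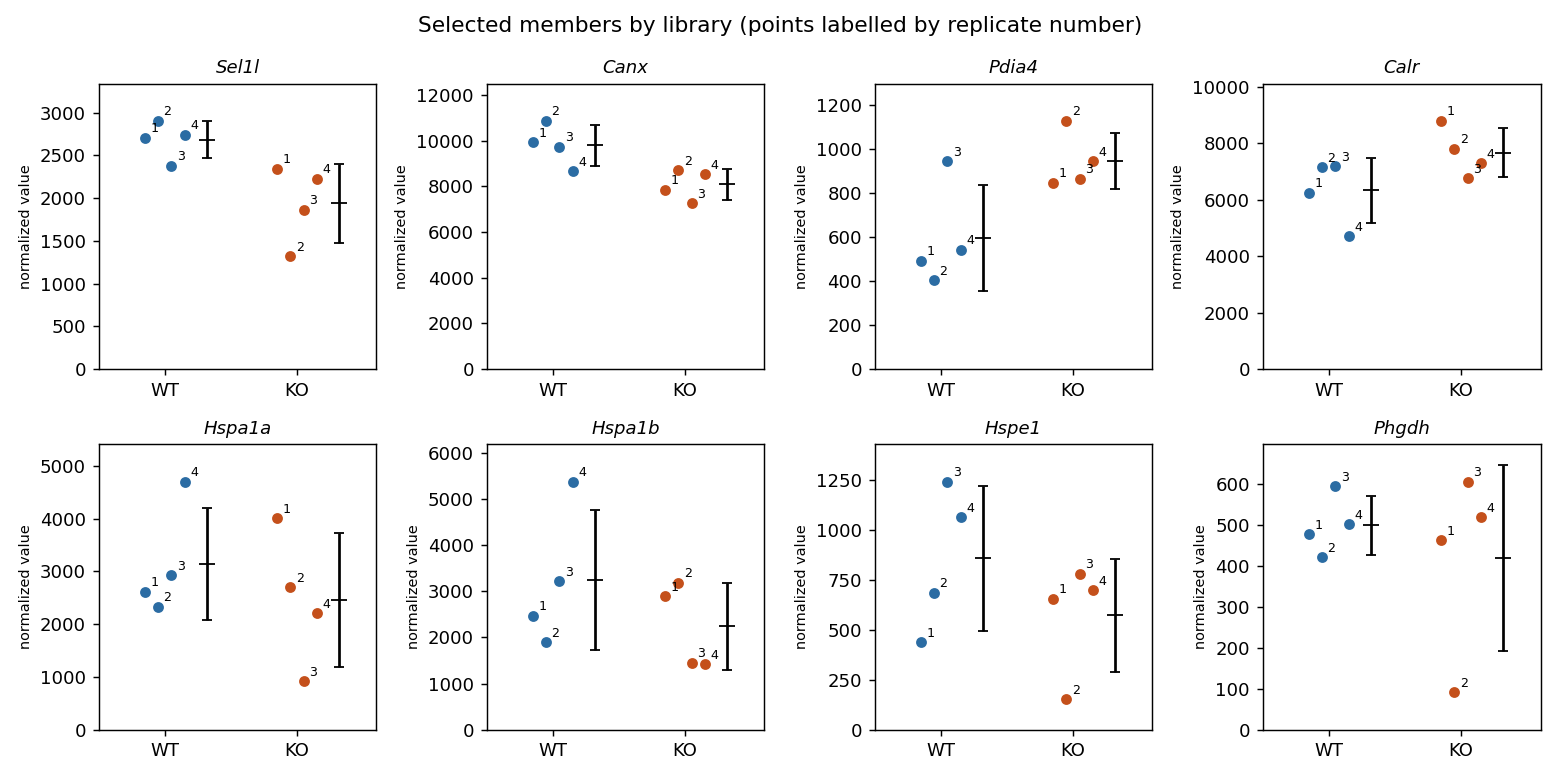
Normalized value of 8 members in each library, numbered by replicate, with the mean and SD of each group (n = 4) at the right. Sel1l separates the groups and Canx nearly does; Hspe1 and Phgdh each have KO library 2 far below the other KO libraries, and Hspa1a and Hspa1b have WT library 4 highest.

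HSC70 and the cytosolic HSP90 forms were the most abundant members of the branch. Per kilobase of exon, Hsp90ab1 stood highest of all members at 3426, followed in this branch by Hspa8 (HSC70) at 2405 and Hsp90aa1 at 2154. Hspa8 read 9408, 7969, 11332 and 11233 in KO libraries and 10186, 10139, 9667 and 12816 in WT libraries (log2 difference -0.11, SE 0.20, adjusted p = 0.931), and the log2 difference was -0.0022 without KO library 2. Hsp90aa1 and Hsp90ab1, the inducible and constitutive forms of cytosolic HSP90, gave -0.10 and -0.01. The 3 intervals ran no lower than -0.51 and no higher than 0.40. Hspa8 and Hsp90aa1 share 38.6% and 47.5% of their 50-base words with other genes, mainly pseudogenes, whereas Hsp90aa1 and Hsp90ab1 share 0 with each other.

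Hsf1, the transcription factor of the branch, was among its lowest members per kilobase, at 40.2. It read 232, 149, 262 and 479 in KO libraries and 299, 432, 228 and 204 in WT libraries (log2 difference -0.12, SE 0.58, adjusted p = 0.982). KO library 4 was highest and KO library 2 lowest, with every WT value between them, and without KO library 2 the difference was 0.14. HSF1 is known to be switched on through its protein, not its transcript.

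Among the co-chaperones, Dnajb1 (HSP40) gave -0.32, Hsph1 (HSP110), a nucleotide exchange factor, gave -0.18 and Dnaja1 gave 0.00. Chordc1, an HSP90 co-chaperone, gave 0.07, and -0.04 without KO library 2. Bag3, which links HSP70 to autophagy, gave 0.23, and 0.35 without it. Cacybp, a binding partner of the ubiquitin ligase Siah1, had the estimate farthest from 0 of the list. It read 700, 1.10, 621 and 464 in KO libraries and 746, 258, 673 and 817 in WT libraries (log2 difference -1.99, SE 1.25, adjusted p = 0.770). KO library 2 held a value far below that of 1 fragment, and without it the log2 difference was 0.04. Stip1 (HOP), which bridges HSP70 and HSP90, read 245, 0, 207 and 59.2 in KO libraries and 29.8, 90.8, 168 and 140 in WT libraries, too few fragments for a fold.

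The branches were also compared within each library. The median deviation of the heat shock members from their own means, in log2, was -0.317 in KO library 2 and 0.322 in WT library 4, and between -0.0272 and 0.132 in the other 6 libraries. For the endoplasmic reticulum members it stayed between -0.0274 and 0.11 in all 8 libraries. For the integrated stress members it was -0.431 and -0.467 in KO libraries 1 and 3, 0.415 and 0.221 in KO libraries 2 and 4, and between -0.135 and 0.114 in WT libraries. The positive median in KO library 2 did not hold for every member. That library held the highest value of 2 of the 9, Atf4 and Psat1, and the lowest of 3. There, 6 of the 9 rested on under 3 fragments.

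**Figure D4:**
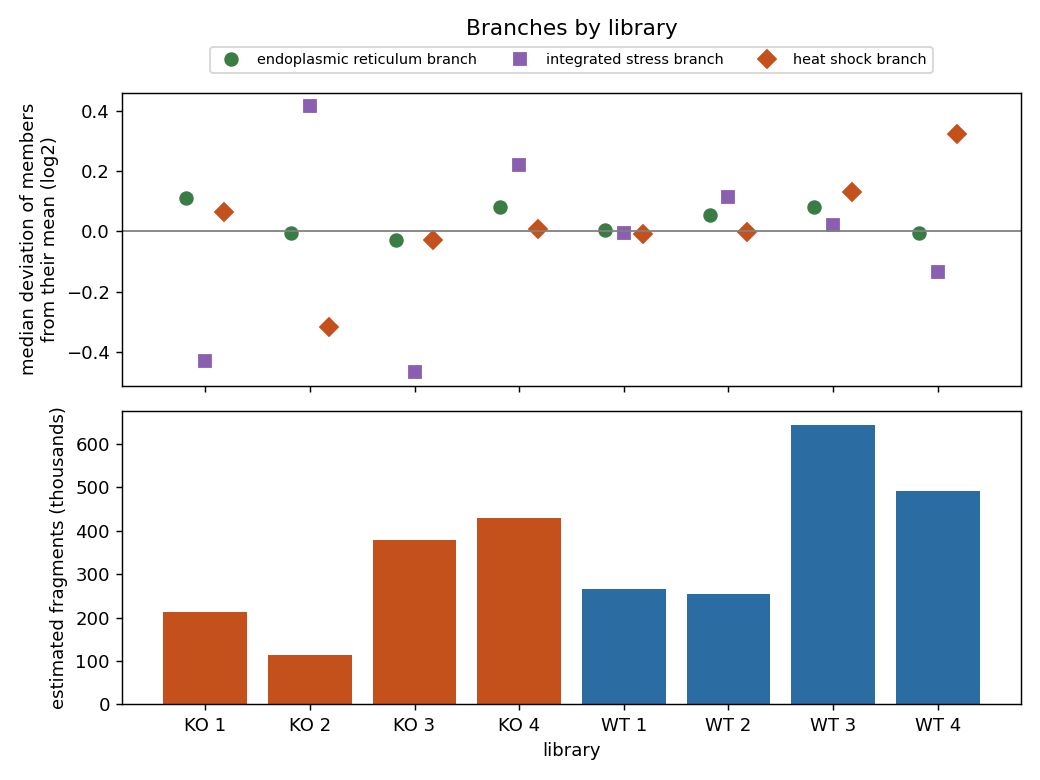
Top, median deviation of each branch's members from their mean over 8 libraries (log2), per library; bottom, estimated distinct cDNA fragments per library in units of 1000, KO in orange and WT in blue. KO library 2 has the fewest fragments and the lowest heat shock median (-0.317), and WT library 4 the highest heat shock median (0.322).

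Other genes of the same pathways gave the same count of 0 called by limma. Of 48 tested genes of the wider endoplasmic reticulum list, which holds translocon, degradation and glycan-sensing factors, 0 were called, 2 had an unadjusted p under 0.05 and the median log2 difference was -0.11. Atf6b, a paralogue of the sensor Atf6, read 620, 752, 375 and 280 in KO libraries and 152, 187, 310 and 192 in WT libraries (log2 difference 1.21, SE 0.53, adjusted p = 0.730). Sec61b, a subunit of the translocation channel, read 166, 343, 252 and 176 in KO libraries and 0, 12.3, 113 and 169 in WT libraries (adjusted p = 0.730). These are the 2 with the smallest p, both are low, and WT values reached into the KO range. Sil1, also low, was the only gene of the list without overlap, beside 2.09% of all genes wholly below. It read 125, 1.10, 92.2 and 62.4 in KO libraries and 184, 413, 148 and 199 in WT libraries (adjusted p = 0.756). Sil1 was named after its values were seen. Ssr3, the list's highest member and a translocon-associated protein, gave -0.09 (SE 0.20).

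For the wider integrated stress list, 0 of 42 tested genes were called, 5 had an unadjusted p under 0.05, and the median was -0.01. Aldh1l2, a mitochondrial folate enzyme, was practically 0 in KO library 2 and read 118, 258 and 5.53 in the other KO libraries, against 297, 314, 355 and 356 in WT libraries (adjusted p = 0.649). Its KO values lay all below its WT values. Those of Eif2s1 lay all above, with 1059, 754, 952 and 1006 in KO libraries and 723, 568, 716 and 647 in WT libraries. Eif2s1 was named after its values were seen. Gpt2, the mitochondrial alanine aminotransferase, read 758, 372, 109 and 517 in KO libraries and 800, 1169, 691 and 780 in WT libraries (log2 difference -1.24, SE 0.49, adjusted p = 0.674). Vegfa, a growth factor under ATF4 and hypoxia control and the highest of the list, read 35190, 29644, 16258 and 38530 in KO libraries and 12792, 27000, 13585 and 20739 in WT libraries. Its log2 difference was 0.69 (SE 0.28, adjusted p = 0.679), and the groups overlapped.

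For the wider heat shock list, 0 of 48 tested genes were called, 3 had an unadjusted p under 0.05, and the median was -0.03. Ppid (cyclophilin 40), an HSP90 co-chaperone, read 110, 357, 438 and 634 in KO libraries and 783, 971, 902 and 885 in WT libraries (log2 difference -1.45, SE 0.47, unadjusted p = 0.00567, adjusted p = 0.454). Dnajc2, a ribosome-bound HSP40, read 307, 257, 383 and 255 in KO libraries and 592, 844, 567 and 430 in WT libraries (log2 difference -0.99, SE 0.43, adjusted p = 0.730). In both genes all KO values lay below all WT values. Dnajb6 lay wholly the other way, with 1858, 1952, 2869 and 1861 in KO libraries and 1146, 1641, 1619 and 1554 in WT libraries. It was named after its values were seen. Over all genes, KO values lay all above in 2.02% and all below in 2.09%. Ubb, a polyubiquitin gene and the highest of the list, gave -0.03 (SE 0.21).

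Heat shock genes and immediate-early genes are known to be turned on while tissue is dissociated, so 15 early genes were read beside them. Their sum ranged from 119430 to 158580 in KO and from 127520 to 157180 in WT libraries, which overlap. limma called 0 of 15, and 4 had an unadjusted p under 0.05. Fos read 20274, 20198, 19717 and 25976 in KO libraries and 36544, 28018, 36510 and 25489 in WT libraries (log2 difference -0.55, SE 0.20, adjusted p = 0.649). Ier3 read 1493, 1366, 981 and 782 in KO libraries and 625, 494, 668 and 741 in WT libraries (log2 difference 0.84, SE 0.32, adjusted p = 0.657). Those 4 were 26.7% of a list with a median level of 6033. Beside it stood 6.7% of all genes and 11.9% of genes with a mean of at least 1000. Of the 4, Ier3 alone had a positive difference, and all its KO values lay above all its WT values. The others were Fos, Jun at -0.48 and Egr1 at -0.45, and all KO values of Jun lay below all its WT values. Over all genes, 2.02% lay wholly above and 2.09% wholly below. Jun and Egr1 were named after their values were seen. Fosb, the highest of the early genes, gave 0.32 (SE 0.23). The part of dissociation in the heat shock values was not tested.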

How the data were processed

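Sorted tumour cells in 8 libraries, 4 per host genotype, were profiled by bulk RNA-seq after depletion of ribosomal RNA, per the labels' protocols. Tools in the submitters' processing notes were STAR 2.7.8a, Partek and DESeq2, with mm39 as the build and no roles stated; the strand is not given in the sources used here. The deposited signal is the authors' estimated count per gene after DESeq2 normalization, going by the table's name. Its values were not whole reads, so no count model was run.

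Values were used as log2(value + 1). Genes with a mean of at least 10, 16120 of 19673, entered a limma fit (version 3.58.1, R 4.3.3, eBayes with intensity trend), KO against WT, two-sided, with Benjamini-Hochberg adjustment over all of them and a threshold of 0.05. The script was tested on simulated data. Per-library statistics were given for the regulators, the 4 members of smallest p and the most abundant member of each branch, members without overlap, and the pairs Hspa1a/Hspa1b and Hspd1/Hspe1. Other lists gave the 2 genes of smallest p and the most abundant gene. Members and lists were chosen with earlier results of these data known.

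Distinct fragments were estimated from the share of genes with a mean of 20 to 500 that had under 3 reads. The share expected of each gene was taken from the other libraries, with fragments drawn at random. Spread between libraries in expression or amplification therefore also counts as missing fragments, and the estimates are approximate. The p-values set the KO minus WT difference against the spread between libraries of a group, which limma moderates by a trend over all genes tested. Exon lengths and 50-base words came from GENCODE M21, in place of a comparison of protein sequences, and promoter windows from RefSeq. Same-numbered KO and WT libraries did not deviate together, so the numbers were not used as pairs. Alternatives covered the pseudocount, minimum mean, scaling, a replicate block, library weights, 2 other variance settings and each library left out.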

Additional observations from a re-analysis of the deposited data

Results flagged for a closer look

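On the log2(value + 1) scale, 6 of 82 groups of 4 libraries held a library farther from the others than Dixon's 95% critical value. Each group was 1 member in 1 host genotype. For independent, normal groups chance gives about 4.1, but members share their libraries and this scale stretches low values. In 4 of the 6 groups the library was KO library 2, the one with the fewest fragments, and it was low. The readings below are values before the log. Pdia6 read 1002 there, with the other KO libraries at 1634 to 1746. Phgdh read 91.4 against 462 to 605. Hspe1 read 154 against 657 to 783. Cacybp read 1.10 against 464 to 700. In WT library 2, Selenos was listed at 0 against 161 to 229, and Cacybp read 258 against 673 to 817.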

How the results depend on the processing

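limma called 0 members in the main analysis and in all 20 alternatives. The count over all genes, 38 as reported, was 63 with a pseudocount of 10, 15 with a minimum mean of 50, 112 with library weights and 7 to 70 with 1 library left out. Without the intensity trend it was 7 higher and 24 lower, against 34 and 4. With the replicate number as a block it was 0; same-numbered libraries correlated at 0.016, 0.052, 0.076 and 0.037, and the block called no member and left 0 with an unadjusted p under 0.05. Members without overlap, 1 as reported, were 2 under TMM, 2 under upper-quartile scaling, 3 under quantile normalization and 2 with small RNAs left out. They were 1 to 2 with 1 library left out. Canx was the addition under scaling, with Hsp90aa1 under quantile normalization. The share over all genes was not counted in these settings, and with fewer libraries groups separate more often by chance. These counts are therefore no result about the members. The median of the endoplasmic reticulum branch ran from -0.090 to 0.19 with 1 library left out. With library weights the sign turned for Ern1 (-0.0015), Hspa8 (0.016), Hspd1 (0.0093) and Hsf1 (0.45). With 1 library left out, log2 differences ran from -0.0079 to 0.20 for Ern1, -0.82 to 0.087 for Phgdh, -0.32 to 0.075 for Hspd1, -0.42 to 0.14 for Hsf1 and -2.75 to 0.040 for Cacybp. Without KO library 2 the sign turned for these 5. It also turned for Ern1 without WT library 1 (-0.0023) and for Hsf1 without WT library 2 (0.094). None of these passed the test either way. KO library 2 has the fewest fragments; beyond that the cause was not tested. The remaining 349 values of named members kept their direction. Depth limits the members under about 150 in value most, since the average fragment was worth an estimated 23.6 to 153. It also limits members above that level: in KO library 2, 14 members rested on under 3 fragments, among them Phgdh, Hspe1 and Cacybp.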
